A study of Mus musculus with 6 samples.

Results

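Lipid-associated macrophages are phagocytes that gather in fatty tissue and in the steatotic liver, where they take up lipid and dying cells. This state is known for a receptor and adaptor pair, TREM2 and TYROBP, for tetraspanins of the cell surface and of late endosomes, for the secreted proteins osteopontin and galectin-3, and for a large lysosomal compartment. In steatohepatitis such cells are known to sit around lipid-laden hepatocytes and fibrotic areas, and they differ in gene expression from the resident Kupffer cells. The expression of 10 genes of this state (Trem2, Tyrobp, Cd9, Cd63, Spp1, Lgals3, Gpnmb, Cd68, Ctsd and Lyz2) was examined in whole liver, among the 17460 gene symbols measured. The genes were chosen by symbol with their control and Blnc1 LKO values in these same livers in view, so their differences between groups are a description. Counts of calls among them stand beside the share of all genes, and nothing is read from them. All 10 passed the filter on low values.

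The 6 liver samples came from C57BL/6 mice, aged 9 months, after 24 weeks on the NASH diet (a diet rich in fructose, fat and cholesterol that induces steatohepatitis). Of these samples, 3 were labelled control and 3 were labelled LKO for liver-specific knockout of the long noncoding RNA Blnc1. Blnc1 LKO mice were Cas9 transgenic mice injected by the tail vein with an adenovirus that expressed guide RNAs against Blnc1. The labels name neither the vector given to these control mice nor a Cas9 transgene in them. The deposited values head the control livers WT and the LKO livers KO, and were matched to the samples by genotype and number. Non-parenchymal cells, which include macrophages, were described by the study as poorly transduced by this virus, which limits these mice as a model of Blnc1 loss in macrophages. Whole liver was sequenced, and the cell that made each transcript was not measured.

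The values below are the deposited normalized values, taken here as the reads of a gene divided by 1 factor per liver. Each liver had between 65384969 and 89350181 reads on the listed genes. Blnc1 itself has no row of that name in the table, and its loss was not checked here. Hepatocyte markers had the highest summed value of the marker lists. Alb, serum albumin, had a normalized value of 4078334 ± 269658 (SD, n = 3) in control and 4132127 ± 459380 (SD, n = 3) in Blnc1 LKO livers. Blnc1 LKO replicate 3 stood apart in markers of neutrophils and their precursors, with a summed normalized value over 11 genes of 7735 against 1236 to 2060 in the other 5 livers. Each gene examined had at least 1081 reads in every liver. Over all 17297 genes tested, limma called 1 gene (0.00578%) at an adjusted p under 0.05.

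The level per length ordered the genes as follows. Spp1 had the highest level, at an RPKM (reads per kilobase of exon, scaled to the reads of the library) of 474 ± 78.9 (SD over all 6 livers). Ctsd had 368 ± 32.9 and Lyz2 294 ± 29.8 in the same unit, and the ranges of Spp1 and Ctsd, and of Ctsd and Lyz2, overlapped. Tyrobp stood apart from both neighbours, at 104 (range from 83.4 to 118). Below it came Cd9 (59.4 ± 6.47), Cd63 (49.1 ± 11.4), Cd68 (40.9 ± 5.23) and Lgals3 (38.3 ± 10.7), each with a range that overlapped that of the next. Trem2 (20.7 ± 3.61) and Gpnmb (14.9 ± 4.34) had the lowest levels, again with overlapping ranges. This order depends on the exon lengths used, which were those of protein-coding transcripts. Over all annotated transcripts the exons of Trem2 cover 4946 rather than 1143 bases, and those of Cd63 3682 rather than 1450. With those lengths both genes would have a lower level.

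**Figure D1:**
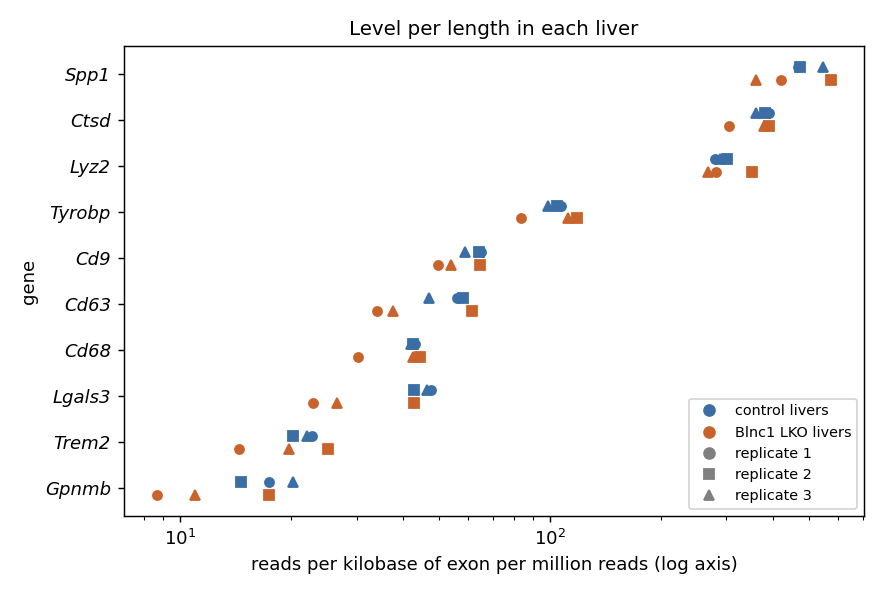
RPKM (reads per kilobase of exon, scaled to the reads of the library; log axis) for each gene, with 1 point per liver, control in blue and Blnc1 LKO in orange, and the marker shape giving the replicate number. Spp1, Ctsd and Lyz2 lie above 267 in every liver and Gpnmb lies between 8.68 and 20.1.

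Sequence upstream of the RefSeq transcription start (GRCm38.p6) was found for 9 of the 10 genes, and for all but Tyrobp. The 250 bases before the start were searched on both strands for 3 motifs of factors known to act in macrophages. TGANTCA, a loose form of the AP-1 motif with any base at N, was in the windows of Trem2 and Cd68. It was in 6.75% of all 32851 windows of this length. The Cd68 matches read TGAGTCA and also meet the stricter form with G or C at N. The Trem2 match reads TGAATCA and does not meet it. GAGGAAGT, a PU.1 motif, was in 1 of the windows of Spp1 and in 2.44% of all windows. CACGTG, the core bound by the TFEB and MITF family, was in the window of Ctsd and in 6.02% of all windows. Exons annotated by GENCODE cover 211 of the 250 bases of this Ctsd window, so most of it may be transcribed. They also cover 49 bases of the window of Lyz2, 47 of Lgals3 and 31 of Cd9. A match is a description of the letters and not of a bound site. Shown are the upstream windows of Trem2, which names the state, of Cd68 and Spp1, which hold the AP-1 and PU.1 matches, and of Gpnmb, among the genes with the largest difference between groups. Capitals mark the motif matches, and each line reads 5′ to 3′ towards the start of its gene.
Trem2 (chr17:48346151-48346400, + strand): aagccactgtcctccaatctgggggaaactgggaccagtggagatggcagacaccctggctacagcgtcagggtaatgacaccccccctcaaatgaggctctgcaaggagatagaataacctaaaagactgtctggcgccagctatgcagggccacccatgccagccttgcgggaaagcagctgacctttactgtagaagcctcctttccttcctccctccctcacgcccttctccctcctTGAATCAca
Cd68 (chr11:69666171-69666420, - strand): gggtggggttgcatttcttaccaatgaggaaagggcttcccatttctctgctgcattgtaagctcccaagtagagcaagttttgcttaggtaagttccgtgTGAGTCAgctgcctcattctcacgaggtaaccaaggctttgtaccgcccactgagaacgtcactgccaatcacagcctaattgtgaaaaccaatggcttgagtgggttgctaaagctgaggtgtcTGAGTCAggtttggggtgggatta
Spp1 (chr5:104434861-104435110, + strand): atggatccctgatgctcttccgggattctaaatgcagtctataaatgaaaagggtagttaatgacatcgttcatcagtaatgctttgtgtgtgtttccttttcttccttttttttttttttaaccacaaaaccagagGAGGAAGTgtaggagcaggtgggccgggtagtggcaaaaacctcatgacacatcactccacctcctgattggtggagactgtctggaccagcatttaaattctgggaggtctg
Gpnmb (chr6:49036268-49036517, + strand): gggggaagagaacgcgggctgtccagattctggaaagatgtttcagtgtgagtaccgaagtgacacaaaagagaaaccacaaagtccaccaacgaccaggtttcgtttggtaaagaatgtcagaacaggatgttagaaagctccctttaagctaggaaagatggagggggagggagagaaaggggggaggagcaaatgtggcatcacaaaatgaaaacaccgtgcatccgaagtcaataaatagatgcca

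Trem2, a surface receptor for lipids and lipoproteins on macrophages, lies on chromosome 17 (48346401 to 48354147, + strand, GRCm38). The control livers had normalized values of 1921, 1708 and 1888, and the Blnc1 LKO livers had 1286, 2045 and 1684. The Blnc1 LKO livers held both the lowest and the highest value, and the groups overlapped. The means were 1839 ± 115 and 1672 ± 380 (SD, n = 3 each), and the log2 fold change was −0.16 (standard error 0.15). Tyrobp (chromosome 7, 30413760 to 30417585, + strand) encodes DAP12, the adaptor through which TREM2 signals. For Tyrobp the controls had 4489, 4365 and 4174 and the knockouts had 3662, 4757 and 4720. Blnc1 LKO replicate 1 was below every control liver and the other 2 were above every control liver. On average the log2 difference was 0.00 (standard error 0.099). Within a liver, the ratio of the Trem2 value to the Tyrobp value was 0.428, 0.391 and 0.452 for the controls and 0.351, 0.430 and 0.357 for the knockouts. In replicates 1 and 3 of the Blnc1 LKO livers this ratio lay below every control liver.

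Cd9 and Cd63 encode tetraspanins, membrane proteins of the cell surface and of late endosomes and exosomes. Many cell types of the liver express them. Cd9 (chromosome 6, 125460266 to 125494791, − strand) had normalized values of 5912, 5860 and 5398 (control) and of 4751, 5670 and 4936 (Blnc1 LKO). Replicates 1 and 3 of the Blnc1 LKO livers lay below every control liver and replicate 2 lay within the control range. The log2 fold change was −0.16 (standard error 0.076). Cd63 (chromosome 10, 128900989 to 128912822, + strand) had 6011, 6259 and 5119 (control) and 3836, 6367 and 4071 (Blnc1 LKO). Its means were 5796 ± 600 and 4758 ± 1399 (SD, n = 3 each), and the log2 fold change was −0.32 (standard error 0.18). Here too replicates 1 and 3 were below every control liver, at 66.2% and 70.2% of the control mean, while replicate 2 had the highest value of all 6 livers.

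Spp1 encodes osteopontin, a secreted matrix protein that binds integrins and CD44 and is made in liver by cholangiocytes as well as macrophages. It lies on chromosome 5 (104435118 to 104441050, + strand). Normalized values reached 57143, 57870 and 67487 in the controls and 53958, 67562 and 44457 in the knockouts. The groups overlapped, with means of 60833 ± 5774 and 55325 ± 11613 (SD, n = 3 each) and a log2 fold change of −0.15 (standard error 0.14). The highest Spp1 values, in control replicate 3 and Blnc1 LKO replicate 2, were in the livers with the highest summed values of 9 cholangiocyte markers. These sums were 5134, 5762 and 7355 in the controls and 5278, 7254 and 5500 in the knockouts, and the part of cholangiocytes in the Spp1 values was not tested. The keratins Krt7 and Krt19, which mark bile duct cells, had log2 fold changes of −0.04 (standard error 0.21) and 0.03 (standard error 0.22).

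Lgals3 encodes galectin-3, a sugar-binding lectin made in abundance by activated macrophages, and lies on chromosome 14 (47367751 to 47386160, + strand). The controls had 5628, 5052 and 5529 as normalized values and the knockouts had 2831, 4872 and 3159. All 3 Blnc1 LKO livers lay below every control liver, replicates 1 and 3 at 52.4% and 58.5% of the control mean and replicate 2 at 90.2%. The log2 fold change was −0.62 (standard error 0.17), the lowest of the 10 genes. Lgals3 was the 1 gene of the 10 whose groups did not overlap, where 5.28% of all genes tested had every Blnc1 LKO liver below every control liver. Since this comparison was used in choosing the genes, nothing is read from that count. Per Cd68 value, Lgals3 was 1.40, 1.28 and 1.40 in the controls and 0.954, 1.22 and 0.790 in the knockouts.

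Gpnmb (chromosome 6, 49036546 to 49070929, + strand) encodes a transmembrane glycoprotein of lysosomes that is induced in lipid-loaded macrophages. Normalized values of 5824, 4875 and 6795 were found in the controls and of 3048, 5604 and 3696 in the knockouts. Replicates 1 and 3 of the Blnc1 LKO livers were below every control liver, and replicate 2 was above the lowest control. The means were 5831 ± 960 and 4116 ± 1329 (SD, n = 3 each), and the log2 fold change was −0.54 (standard error 0.21).

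The remaining genes are general phagocyte and lysosome genes. Cd68 (chromosome 11, 69664213 to 69666153, − strand), a lysosomal glycoprotein used to stain macrophages, had normalized values of 4022, 3955 and 3947 (control) and of 2968, 4000 and 3999 (Blnc1 LKO). Replicate 1 alone was below the controls, at 74.7% of their mean, and the other 2 livers lay within the control range. Ctsd (chromosome 7, 142375911 to 142388038, − strand), the lysosomal protease cathepsin D, had 61793, 59868 and 57161 (control) and 50512, 59414 and 60262 (Blnc1 LKO). Again only replicate 1 lay below the controls, and the log2 fold changes were −0.13 (standard error 0.11) for Cd68 and −0.08 (standard error 0.086) for Ctsd. Lyz2 (chromosome 10, 117277331 to 117282321, − strand), lysozyme of macrophages, monocytes and neutrophils, had 27173, 29230 and 28291 (control) and 28710, 32961 and 26268 (Blnc1 LKO). Its groups overlapped, and the log2 difference of the means was 0.05 (standard error 0.086). In Blnc1 LKO replicate 3, where the neutrophil sum was highest, Lyz2 had its lowest value. Lyz1, the neighbouring and near-identical paralog whose reads can be shared with Lyz2, had a mean of 65.5 ± 14.8 among the controls and of 84.3 ± 19.6 among the knockouts (SD, n = 3 each, adjusted p = 0.957, limma).

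**Figure D2:**
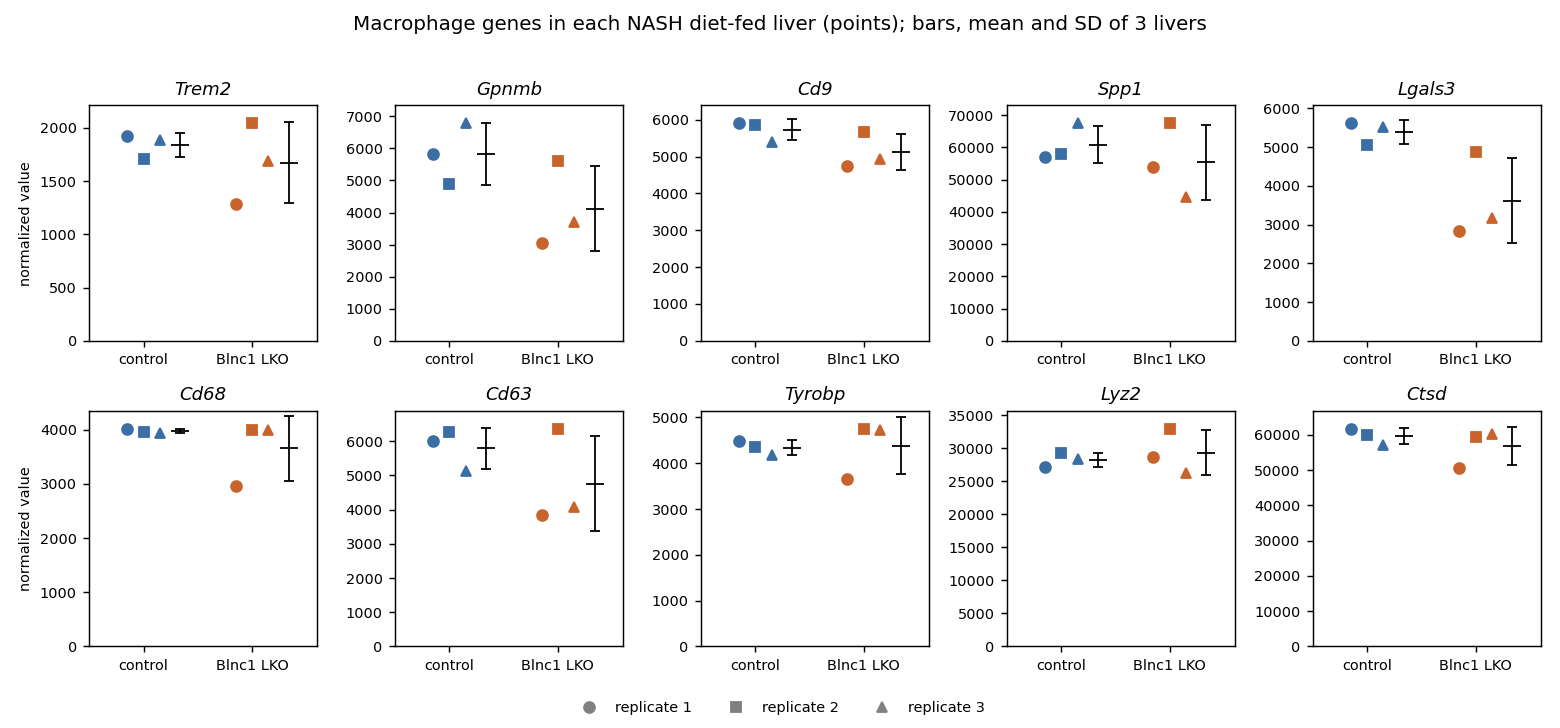
Normalized values (y axes from 0) of the 10 genes in 3 control livers (blue) and 3 Blnc1 LKO livers (orange), with the marker shape giving the replicate number and black bars the mean and SD of 3 livers. Lgals3 is the gene with no overlap between the groups, and in 8 of the 10 panels Blnc1 LKO replicate 1 is the lowest point.

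None of the 10 genes passed an adjusted p under 0.05 in limma, edgeR, DESeq2 or voom, where these called 0.00578%, 0.0116%, 0.486% and 0.00578% of all genes. At an unadjusted p under 0.05 the counts were 2 genes in limma, 2 in edgeR, 1 in DESeq2 and 2 in voom, against 5.68%, 5.6%, 4.89% and 5.59% of all genes in either direction. All of these were lower in Blnc1 LKO livers, as were 2.74%, 2.62%, 2.42% and 2.8% of all genes. Because the 10 genes were chosen with these values in view, these counts are no test of them. The log2 fold change was below 0 for 8 of the 10, with a median of −0.16, whereas 50.4% of all genes were below 0.

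The 3 Blnc1 LKO livers differed from each other in these genes. In replicate 1, 9 of the 10 genes were below every control liver (32.1% of all genes were), in replicate 3 there were 7 (27.8% of all genes) and in replicate 2 there was 1 (27.9% of all genes). Conversely, 5 genes in replicate 2 were above every control liver (27.6% of all genes), against 1 in replicate 3 and 0 in replicate 1 (29.4% and 33.6% of all genes). The mean deviation of the 10 genes from their control means, on the log2(value + 1) scale, was −0.43, 0.06 and −0.27 in Blnc1 LKO replicates 1, 2 and 3, and between −0.03 and 0.02 in the control livers. The SD over the Blnc1 LKO livers exceeded that over the control livers for 10 of the 10 genes on the same scale, as it did for 67% of all genes. For Cd68 the SDs of the normalized value were 41.2 in control and 595 in Blnc1 LKO livers. Replicate 2 was the knockout nearest to the controls, so leaving it out raises the number of separated genes by construction. Without it, Trem2, Gpnmb, Cd9, Spp1, Lgals3 and Cd63, 6 of the 10, lay in both remaining knockouts under the lowest control (13.6% of all genes). Without replicate 1 the median log2 fold change of the 10 genes was −0.05, and 5 of them were below 0.

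**Figure D3:**
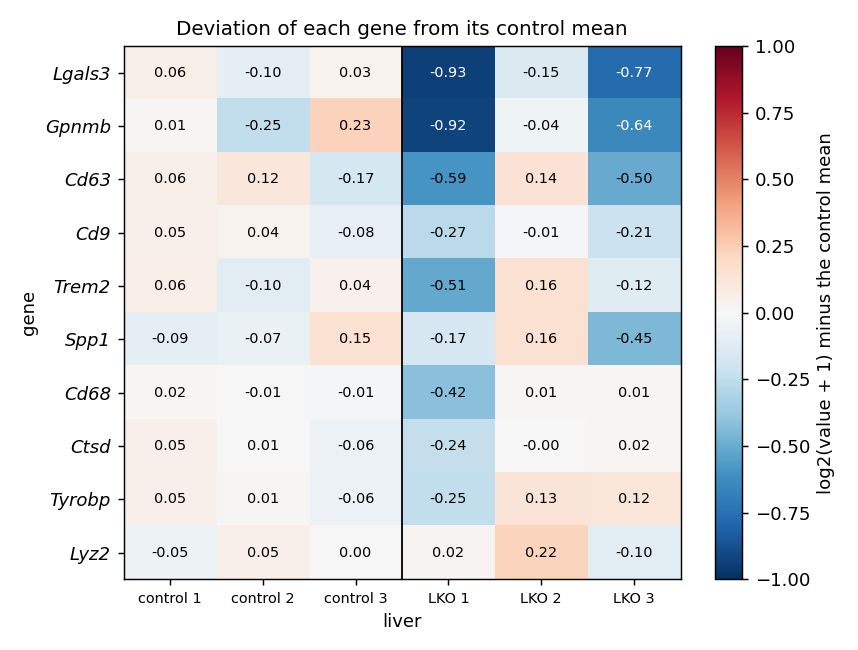
Heat map of log2(value + 1) minus the mean of the control livers, with genes in rows ordered by log2 fold change and the 6 livers in columns, blue for lower and red for higher. Blnc1 LKO replicates 1 and 3 are blue from Lgals3 to Spp1, with −0.93 and −0.77 for Lgals3, and replicate 2 is near 0 or above in most rows.

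In whole liver, fewer cells of a type and less RNA per cell cannot be told apart, so the genes were also set beside markers of macrophages in general. Over 16 such markers 0 passed the adjustment in limma, edgeR, DESeq2 or voom, 11 were lower and 5 higher in mean, and the median log2 fold change was −0.04. Their summed normalized value ranged from 107822 to 115124 in control and from 98095 to 115611 in Blnc1 LKO livers, with the lowest sum in replicate 1, and no marker was at 0. At an unadjusted p under 0.05 there was 1 of the 16 in limma, Adgre1, which encodes the macrophage marker F4/80. Adgre1 had 4694, 4615 and 4393 (control) and 4867, 5015 and 5287 (Blnc1 LKO), so every Blnc1 LKO liver was higher than every control liver (log2 fold change 0.15, standard error 0.055, adjusted p = 0.840, limma). For Mpeg1, a pore-forming protein of macrophages, every Blnc1 LKO liver was lower, and 10.6% of all genes separated the groups in either direction. Csf1r, the receptor for the macrophage growth factor CSF1, stood at 0.12 on the log2 scale (standard error 0.078, adjusted p = 0.951, limma), and Mpeg1 −0.11 (standard error 0.056, adjusted p = 0.924, limma).

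Relative to the mean log2 value of these 16 markers in the same liver, 8 of the 10 genes were lower in the mean of the Blnc1 LKO livers (46.7% of all genes), and Lgals3, Cd9, Cd68 and Ctsd, 4 of them, lay in all 3 knockouts under the lowest control (4.05% of all genes). Lgals3 lay at −0.76, −0.21 and −0.85 in Blnc1 LKO livers and between −0.09 and 0.08 in control livers on this relative log2 scale. Gpnmb lay at −0.76, −0.11 and −0.72, with control livers from −0.24 to 0.27. Ctsd had a small and even difference, at −0.07, −0.07 and −0.06 against −0.02 to 0.02 in control livers. The cell that made each transcript was not measured, so such relative values are not values per macrophage. Tyrobp stayed close to the macrophage markers, at −0.08, 0.07 and 0.04. The relative values of Trem2 in Blnc1 LKO livers were −0.35, 0.09 and −0.20, and overlapped with the control range of −0.10 to 0.08.

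The resident Kupffer cell markers lay the other way. All 7 had a higher mean in Blnc1 LKO livers, with a median log2 fold change of 0.50. In limma 4 of them had an unadjusted p under 0.05 (5.68% of all genes), while 0 passed the adjustment in limma, edgeR, DESeq2 or voom. Their summed normalized value ranged from 36070 to 42493 in control and from 40022 to 49073 in Blnc1 LKO livers, and none was at 0. Marco alone had every Blnc1 LKO liver above every control liver (10.6% of all genes separated the groups in either direction). The mean deviation of the 7 from their control means, on the log2(value + 1) scale, was 0.31 in Blnc1 LKO replicate 2 and 0.33 in control replicate 2. Timd4, a phosphatidylserine receptor of long-lived Kupffer cells, had 109, 218 and 124 (control) and 628, 181 and 257 (Blnc1 LKO), with an adjusted p of 0.851 (limma). Marco, a scavenger receptor, had 32.6, 87.4 and 23.4 (control) and 794, 95.8 and 509 (Blnc1 LKO; adjusted p = 0.577, limma). For Vsig4, a complement receptor, the log2 fold change was 1.04 (standard error 0.31, adjusted p = 0.737, limma), and for Clec4f, a lectin of Kupffer cells, it was 0.46 (standard error 0.19, adjusted p = 0.857, limma). The abundant Cd5l, a secreted scavenger receptor protein, and Folr2, a folate receptor, had log2 fold changes of 0.02 and 0.10 (both named after their values were seen). The Blnc1 LKO replicates with the highest mean of these markers, 1 and 3, were those with the lowest means of the 10 genes. The monocyte markers were mixed, with 7 of 12 lower in mean and 0 past the adjustment in any of the 4 tests. In limma 3 had an unadjusted p under 0.05 (5.68% of all genes). Among them Ccr2, the chemokine receptor of recruited monocytes, differed by −0.33 on the log2 scale (standard error 0.087, adjusted p = 0.619, limma) and Treml4, a receptor of the TREM family, 0.33 (standard error 0.10, adjusted p = 0.781, limma).

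**Figure D4:**
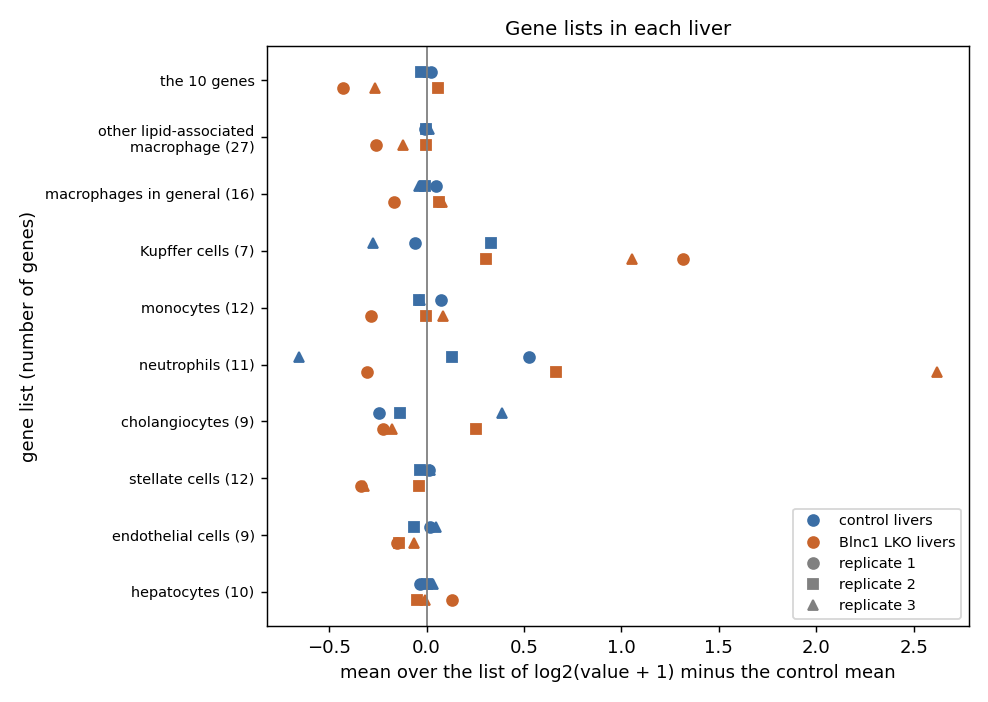
Mean over each gene list of log2(value + 1) minus the control mean (x axis), with 1 point per liver, control in blue and Blnc1 LKO in orange, and the marker shape giving the replicate number. The 10 genes lie at −0.43 and −0.27 in Blnc1 LKO replicates 1 and 3, where the Kupffer cell markers lie at 1.31 and 1.06 (medians over the same 7 genes 0.96 and 0.57), and the neutrophil markers of replicate 3 stand apart at 2.62.

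A further 27 genes known from lipid-associated macrophages were examined. None passed the adjustment in limma, edgeR, DESeq2 or voom, and 1 had an unadjusted p under 0.05 in limma (1 in edgeR, 2 in DESeq2 and 1 in voom). The log2 fold change was below 0 for 25 of the 27, against 50.4% of all genes, with a median of −0.11 against −9.9e-04 over all genes. The values ranged from −0.53 for Atp6v0d2, a subunit of the proton pump of lysosomes, to 0.14 for Nceh1, a cholesteryl ester hydrolase. This list was chosen with earlier results of these data known, so counts of its genes beside the share of all genes are no test. The 27 genes were also measured in the same livers, so they are not 27 separate observations. Lgals1, galectin-1, had 11746, 10736 and 10351 (control) and 8007, 9797 and 9541 (Blnc1 LKO), with a log2 difference of −0.27 (standard error 0.086, adjusted p = 0.791, limma). Every Blnc1 LKO liver was lower than every control liver for Lgals1, Lipa and Ctsb, 3 of the 27 (5.28% of all genes). Lipa is the lysosomal acid lipase and Ctsb is cathepsin B, and both were named after their values were seen, as was Atp6v0d2. Nceh1 had an adjusted p of 0.891 (limma), with a standard error of 0.063. The mean deviation of the 27 genes was −0.26, −0.00 and −0.12 in Blnc1 LKO replicates 1, 2 and 3. Hepatocytes also make several of these transcripts, such as Apoe, Cd36, Plin2 and Lipa.

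**Figure D5:**
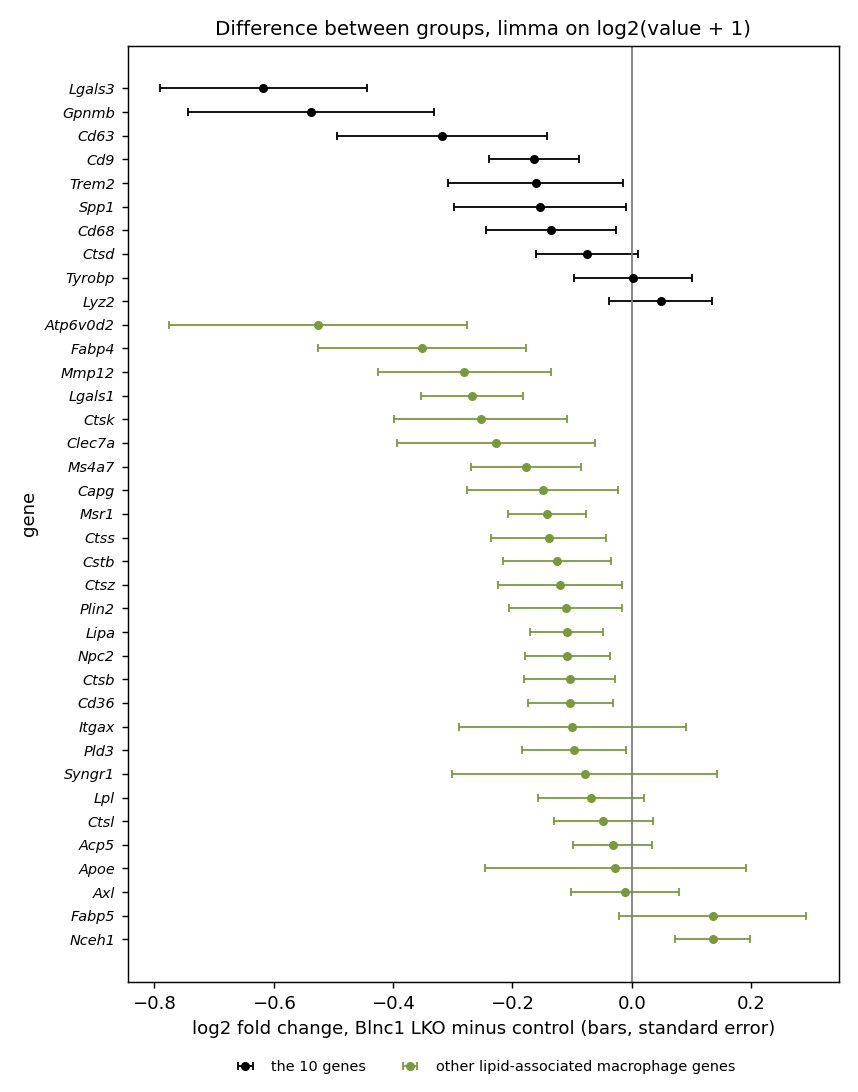
Log2 fold change (Blnc1 LKO minus control) with its standard error from limma for the 10 genes (black) and 27 other lipid-associated macrophage genes (green). Lgals3 and Gpnmb lie at −0.62 and −0.54, and 25 of the 27 green points lie below 0.

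Partners of the proteins were compared in the same fit. Of 18 genes that act with TREM2 and TYROBP, such as the kinase Syk and the phospholipase Plcg2, 0 passed the adjustment in limma, edgeR, DESeq2 or voom and 0 had an unadjusted p under 0.05 in limma, with 11 lower, 7 higher and a median log2 fold change of −0.03. The genes of smallest p were Card9, an adaptor downstream of SYK, at −0.38 (standard error 0.23, adjusted p = 0.945, limma), and Adam17, a protease that sheds TREM2, at −0.07 (standard error 0.050, adjusted p = 0.951, limma). Other receptors that signal through TYROBP had a median of 0.10 over the 6 of 7 listed, with Clec5a at −0.26 and Trem3 at 0.29 (adjusted p = 0.937 and 0.973, limma). Receptors for osteopontin had a median of −0.06 over 7 genes, with the integrin chains Itgav at −0.13 and Itga4 at −0.09 (adjusted p = 0.921 and 0.968, limma). Other tetraspanins had a median of −0.02 over 18 genes, 11 of them lower, with Tspan6 at −0.33 and Tspan33 at 0.39 (adjusted p = 0.934 and 0.879, limma). In these 3 lists too, 0 genes passed the adjustment in any of the 4 tests and 0 had an unadjusted p under 0.05 in limma.

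Of 31 lysosomal enzymes and membrane proteins, 23 were lower and 8 higher in mean, with a median log2 fold change of −0.02 and a range from −0.21 to 0.17. Psap, the precursor of the saposins that help degrade sphingolipids, had a log2 difference of −0.19 (standard error 0.086, adjusted p = 0.891, limma). Hexa, a subunit of hexosaminidase, had −0.15 (standard error 0.073, adjusted p = 0.899, limma). Among 11 regulators such as Tfeb, Mitf, Spi1 (PU.1) and the LXR gene Nr1h3, the median was −0.02, with Il34, a ligand of CSF1R, at −0.18 (adjusted p = 0.951, limma). In both lists 0 genes passed the adjustment in any of the 4 tests, and 0 had an unadjusted p under 0.05 in limma.

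Markers of other liver cells were set beside the genes. Of 12 stellate cell and myofibroblast markers, 10 were lower in mean, with a median log2 fold change of −0.20. In limma 0 passed the adjustment and 5 had an unadjusted p under 0.05 (5.68% of all genes), edgeR and voom called 0 and DESeq2 called 4. Their summed normalized value was 130069, 118940 and 131068 (control) and 100373, 119248 and 99862 (Blnc1 LKO), so replicates 1 and 3, with the lowest Lgals3, Gpnmb and Cd63, also had the lowest sums. Col1a1, a chain of type I collagen, had a log2 difference of −0.61 (standard error 0.14, adjusted p = 0.548 in limma and 0.0046 in DESeq2), and Acta2, smooth muscle actin, −0.52 (standard error 0.11, adjusted p = 0.548 in limma and 0.016 in DESeq2). The part of these cells in the values of the 10 genes was not tested. Endothelial markers had a median log2 fold change of −0.09 over 9 genes, with Lyve1, the hyaluronan receptor of sinusoidal endothelium, at −0.57 and Pecam1 (CD31) at −0.17 (adjusted p = 0.695 and 0.818, limma). Dendritic cell markers had a median of 0.03 over 7 genes, with Cd209a at 0.36 and Zbtb46 at 0.12 (adjusted p = 0.891 and 0.973, limma). For lymphocyte markers it was −0.02 over 13 genes, with Klrb1c (NK1.1) at 0.83 and Cd79b, a chain of the B cell receptor, at 0.32 (adjusted p = 0.873 and 0.893, limma). Cholangiocyte markers had a median of −0.04 over 9 genes, with the chloride channel Cftr at −0.12 (adjusted p = 0.986, limma), hepatocyte markers 0.02 over the 10 in the table, with the fibrinogen chain Fgb at 0.19 and Asgr1 at 0.12 (adjusted p = 0.932 and 0.927, limma), and neutrophil markers 1.06 over 11, with the granule proteins Camp at 2.26 and Elane at 1.24 (adjusted p = 0.879 and 0.880, limma). In each of these 6 lists 0 genes passed the adjustment in limma, edgeR, DESeq2 or voom. At an unadjusted p under 0.05 in limma (5.68% of all genes) there were 3 of the endothelial and 1 of the lymphocyte markers and 0 in the other 4 of these lists.

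The genes were last compared by how they varied among livers of the same group, after each group's mean was removed from log2(value + 1). Pearson's r over the 6 livers between a gene and the mean of the other 9 was highest for Lgals3 (0.981) and Trem2 (0.931), and lowest for Spp1 (0.546) and Ctsd (0.619). The other 6 genes lay between 0.635 for Lyz2 and 0.870 for Gpnmb. Of list means set against the mean of the 10 genes, the 27 other lipid-associated macrophage genes (0.959) and the stellate cell markers (0.957) were most alike. Other tetraspanins followed (0.904), and markers of macrophages in general had 0.689. The Kupffer cell markers (−0.900) and hepatocyte markers (−0.840) were most opposed. The mean of the 10 genes deviated by −0.22, 0.27 and −0.06 in Blnc1 LKO replicates 1, 2 and 3. In control livers it deviated by −0.03 to 0.02, so each r rests mainly on the knockouts, above all replicates 1 and 2. The single genes most like the 10 were Zfp512, Il17rb, Myzap, Leprot and Wdsub1, with r from 0.994 to 0.999. They are the highest of 12478 genes compared, of which 452 had an r above 0.9. With 6 livers and 2 group means removed, each r rests on few free values. These correlations describe 6 libraries, which also differ in depth and in the make-up of the tissue.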

How the data were processed

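PolyA-selected RNA of 6 livers was measured. The authors used STAR for alignment (mm10), HTSeq for counting and DESeq2 for differential expression. How the deposited values were scaled is not given in the sources used here. Versions and annotation are not given in the sources used here. By their steps, the deposited values are a signal of gene counts divided by 1 factor per liver. Divided by what 1 read is worth, all of them (100%) came out whole (tolerance 0.01 reads), so reads were recovered, 65384969 to 89350181 per liver.

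limma (version 3.58.1, R 4.3.3; lmFit, eBayes with trend) was fitted to log2(value + 1) over 17297 genes whose value reached 1 in 3 or more livers, with two-sided tests, with Benjamini-Hochberg adjustment at 0.05. Fold changes are on the log2(value + 1) scale, which understates low genes. Alternatives were edgeR (4.0.16), DESeq2 (1.42.0) and voom on recovered reads, a pseudocount of 0.1, other filters and scalings, the replicate number as a block, and each liver left out. With 3 livers against 3, an exact permutation test on 1 gene has a smallest p of 0.1. Fits were tested on simulated data. No source says more of the livers than that they are separate samples of a group. The p-values therefore set the difference between groups against the spread between these samples within a group.

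The 10 genes and the 17 other gene lists were chosen with earlier results of these data known. In each list the genes past the adjustment, or otherwise the 2 of smallest p, were named, besides Adgre1, Csf1r, Clec4f, Timd4, Ccr2, Krt7, Krt19, Alb and Lyz1, and for likeness the 5 genes of highest r with a mean value of at least 100. Some genes that this rule gives are not reported here. Genes outside the rule were named after their values were seen. Exon lengths (protein-coding transcripts of the basic set) and positions came from GENCODE M21 (GRCm38), and exons of Cd9, Spp1 and Ctsd overlap those of Gm26728, Gm42793 and Gm49369 there. Gm42793 and Gm49369 lie on the same strand as Spp1 and Ctsd, so strand could not part the reads of these overlaps. Gm26728 lies on the strand opposite to Cd9, but the library kit does not mark strand. Within-group pairs of livers differed by more than counting noise (chi-square over its degrees of freedom, 20.8 to 70.0).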

Additional observations from a re-analysis of the deposited data

How the results depend on the processing

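The number of genes called over all genes was 1. It was 2 with no filter on low values, 2 in edgeR, 84 in DESeq2 (45 higher and 39 lower in Blnc1 LKO livers) and 0 with the replicate number as a block (912 genes at an unadjusted p under 0.05), and ranged from 0 to 13 as single livers were left out, the highest count without Blnc1 LKO replicate 2. In that setting Lgals3 alone among the 10 genes was called. Replicate 2 was the knockout nearest to the controls and the genes were chosen with these values in view, so this call is no test of Lgals3. The deviations of same-numbered livers of the groups had an r of −0.080, −0.0055 and −0.12 over 12488 genes. Livers of unlike number had from −0.026 to 0.11. Such values cannot show whether the numbers mark a litter, day or batch, which no source states. With the block the median log2 fold change of the 10 genes stayed at −0.16.

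With each liver left out, the median of the 10 genes ranged from −0.27 to −0.05, the number of them lower in every Blnc1 LKO liver from 1 to 6, and the median of the 27 other macrophage genes from −0.18 to −0.07. Over all settings tried, Lgals3 (−0.85 to −0.46), Gpnmb (−0.78 to −0.34), Cd63 (−0.55 to −0.18), Cd9 (−0.24 to −0.11) and Spp1 (−0.31 to −0.01) stayed below 0, whereas Trem2 (−0.32 to 0.02), Cd68 (−0.21 to 0.01), Ctsd (−0.12 to 0.01), Tyrobp (−0.06 to 0.13) and Lyz2 (−0.04 to 0.12) took both signs. With a liver left out the sign also turned for the reference genes Krt19 (−0.19 to 0.24), Krt7 (−0.25 to 0.13) and Alb (−0.073 to 0.076), and for Cftr (−0.32 to 0.17). The cause of these shifts was not tested. Genes of low level such as Timd4 and Marco rest on fewer reads.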
